A study of Arabidopsis thaliana with 12 samples.

Results

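*RALFL27* (AT3G29780) is a gene of Arabidopsis that encodes a small signaling peptide of the RALF (rapid alkalinization factor) family. Of the 22810 probe sets on each ATH1 array, 1 belonged to it, and the platform annotation paired that probe set with no other gene. The gene was taken up with earlier results of these arrays known, because its signal after salt was very low in the overexpressor and because its salt response differed between the genotypes. Its levels and log2 differences below are therefore descriptions, given with their spread and without a test. The near-background signal after salt was part of that choice.

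RALF peptides are cysteine-rich peptides that cells secrete into the wall space, where they raise the pH outside the cell and slow cell expansion. They are bound by receptor kinases of the *Catharanthus roseus* RLK1-like family, of which FERONIA is the best known, and by leucine-rich repeat extensins (LRX) anchored in the cell wall. Some RALF precursors are cut by the subtilase S1P, and the FERONIA and LRX module is known to be needed for seedling growth on salt.

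Whole seedlings were compared in 4 groups of 3 arrays. Salt-treated and mock-treated overexpressor plants carried the poplar gene *PtSnRK2.7* (spelled PrSnRK2.7 in the sample titles), and salt-treated and mock-treated wild-type plants were of the Columbia strain. The seedlings were 7 days old when they were moved to plates with 200 mM NaCl or without it, and they were 9 days old when RNA was extracted after 2 days. The arrays of a group were independent biological replicates according to the study's methods. The transgene, 35S:PtSnRK2.7:NOS, was driven by the constitutive cauliflower mosaic virus promoter, and the overexpressor was a single line in its T2 generation, line 20, set against untransformed plants and not against a vector control. A difference between the genotypes is therefore one between this line and the wild-type. The poplar transcript itself was not measured here.

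The values are the authors' MAS5 signals, a linear brightness in arbitrary units, and log2 differences are between group means of log2 signal with a standard error (SE) from limma. The authors had brought the arrays to a common scale, so that trimmed means ranged over 500.04 to 500.05 and medians over 169.5 to 194.7. No detection call was used, and a signal below the 20th percentile of its own array, which lay between 20.6 and 27.8, is called near background here. Replicates of the salt-treated wild-type scattered more than those of the other groups, with a median SD of log2 signal over all probe sets of 0.206 and 0.204 for overexpressor salt and mock, 0.363 for wild-type salt and 0.197 for wild-type mock. Of the 14 root and 13 shoot markers listed, 3 and 5 were measured, and the summed signals of both sets were high on every array (ranges further on). Of 11 pollen markers, 4 were measured, and none lay above the 20th percentile on all arrays of any group. Of 10 genes listed as a check of the salt treatment, 5 were measured and 5 were higher after salt in both genotypes, against 17.1% of all probe sets in the overexpressor and 17.2% in the wild-type (4 of the 5 paired only through the paper's tables, which hold genes selected on these arrays). With 3 arrays a group, the number of arrays limits how precise each value is.

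After salt stress, *RALFL27* had signals of 3.23, 3.12 and 4.29 in the 3 overexpressor samples. In the mock-treated overexpressor, its signals were 264, 267 and 223. In the wild-type, it had 34.8, 78.7 and 58.5 after salt and 162, 202 and 185 after mock treatment. The salt-treated overexpressor arrays were the lowest 3 of all 12, and the ranges of no 2 groups overlapped. The share of all probe sets without such overlap was not counted, for this gene or for those below. Non-overlap is therefore only a description of the single values. In whole seedlings, fewer cells that express the gene and less RNA per cell cannot be told apart.

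**Figure D1:**
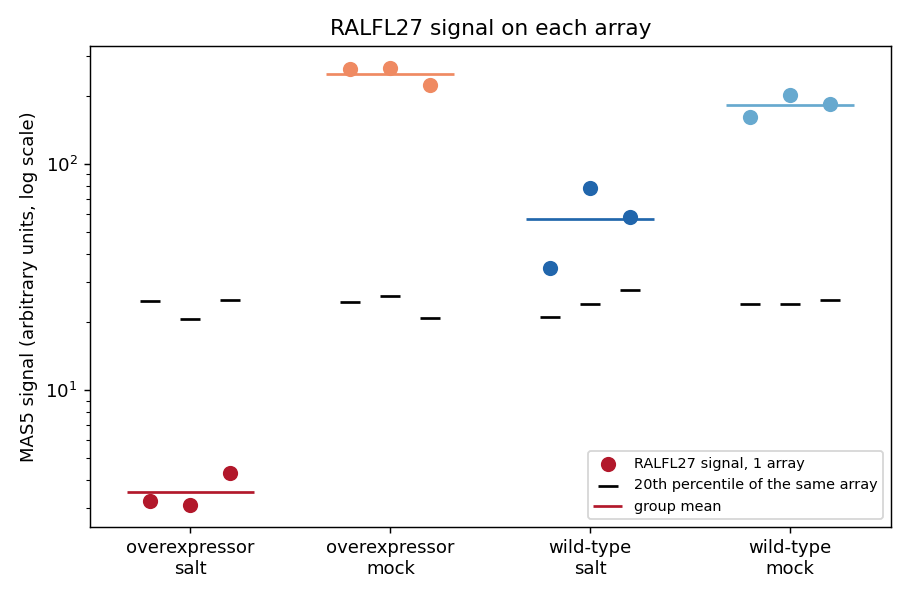
Signal of *RALFL27* on each of the 12 arrays (MAS5 signal in arbitrary units, log scale), with 1 point per array and a horizontal line at each group mean. Black dashes mark the 20th percentile of the same array. The 3 salt-treated overexpressor points, 3.12 to 4.29, lie below their dashes, and all other points lie above theirs.

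In the overexpressor, the group means were 3.55 ± 0.649 after salt and 251 ± 24.7 after mock treatment, and in the wild-type they were 57.4 ± 22.0 after salt and 183 ± 20.1 after mock treatment (SD, n = 3 arrays each). From high to low, the order was thus mock-treated overexpressor, mock-treated wild-type, salt-treated wild-type and salt-treated overexpressor. The smallest step in this order was between the mock-treated groups, with a log2 difference of 0.46 (SE 0.32) between overexpressor and wild-type. That difference was 1.37-fold in mean signal and ranked 2492 from the most positive of 22746 probe sets in the same comparison.

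As measured, the salt-treated overexpressor kept 1.41% of the mean *RALFL27* signal of its mock treatment, a share that rests on signals near background, and the salt-treated wild-type kept 31.3%. On the log2 scale, salt minus mock was -6.16 (SE 0.32) in the overexpressor and -1.75 (SE 0.32) in the wild-type. The difference between those salt responses, the interaction, was -4.41 (SE 0.45). Among 22746 probe sets, *RALFL27* ranked 7 from the most negative for salt in the overexpressor, 1133 for salt in the wild-type and 9 for the interaction. Its neighbors in the overexpressor's ranking were *AT1G13650* (-6.28) and *AT1G70985* (-6.01).

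Under salt, the overexpressor differed from the wild-type by -3.95 (SE 0.32) on the log2 scale, rank 1 from the most negative in that comparison. Because the overexpressor signals were near background, this size and this rank are not exact, and with all signals raised to at least the 20th percentile of their array the difference was -1.22 at rank 116. The median over all probe sets was -0.09 for salt in the overexpressor, -0.07 for salt in the wild-type and -0.03 for the genotype under salt on these arrays, which the authors had scaled to a common trimmed mean.

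How far *RALFL27* stood above background on each array shows how much of these differences can be read as a size. In the salt-treated overexpressor, its signal was 0.130, 0.151 and 0.172 times the 20th percentile of the same array, and 5.39%, 6.60% and 7.04% of the probe sets had a lower signal. It was below the 20th percentile on 3 of 3 arrays of that group and on 0 arrays of the other groups. In the mock-treated overexpressor, 52.9% to 57.8% of the probe sets lay below it.

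**Figure D2:**
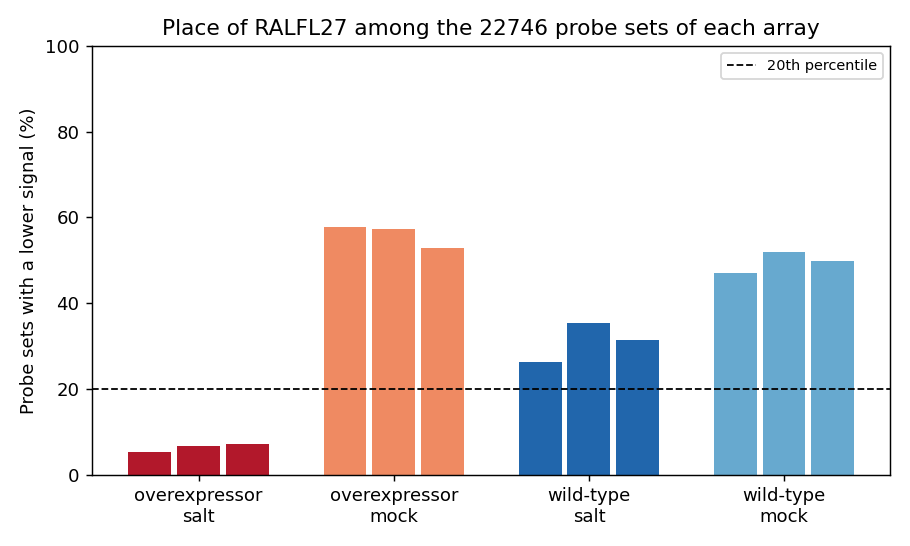
Share of the 22746 probe sets of an array with a lower signal than *RALFL27* (percent), with 1 bar per array and the groups in the order of the signal plot. The bars of the salt-treated overexpressor, 5.39% to 7.04%, stay under the dashed line at 20%, and those of the salt-treated wild-type, 26.3% to 35.3%, stand above it.

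In the salt-treated wild-type, *RALFL27* was at 1.66 to 3.28 times the 20th percentile, with 26.3% to 35.3% of the probe sets below it. In the mock-treated wild-type, 47.1% to 51.9% lay below it, near the middle of the array. With all signals raised to at least the 20th percentile of their array, the log2 difference was -3.42 (rank 75 from the most negative) for salt in the overexpressor, -1.22 for the genotype under salt and -1.67 (rank 54) for the interaction. With 16 added to every signal, these values were -3.77 (rank 34), -1.86 (rank 8) and -2.29 (rank 7). The direction of the *RALFL27* differences was the same on both scales, which could not reverse it because the group ranges did not overlap. Their size and rank depended on how signals near background were treated.

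The replicates of *RALFL27* agreed least in the salt-treated wild-type. The SD of its log2 signal was 0.25 (salt) and 0.15 (mock) in the overexpressor, against 0.60 (salt) and 0.16 (mock) in the wild-type. Set against the mean of the wild-type mock arrays, the salt-treated wild-type arrays kept 19.0%, 43.0% and 31.9% of the signal, in the order of the replicate numbers. The salt-treated overexpressor arrays kept 1.29%, 1.24% and 1.71% of their own mock mean.

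These wild-type arrays also differed in their salt response across the transcriptome. The change of single wild-type salt arrays was regressed on the mean overexpressor change, over 2329 probe sets called for salt in the overexpressor (limma, adjusted p under 0.01, more than 3-fold). The slopes were 0.920, 0.589 and 0.852 for replicates 1, 2 and 3. In reverse, over 1960 probe sets called likewise in the wild-type, the overexpressor salt arrays had slopes of 0.999, 0.936 and 0.99. Probe sets were thus chosen on the genotype regressed on, and the wild-type slopes are compared only with each other. Among the wild-type salt arrays, replicate 2, with the lowest slope, had the highest *RALFL27* signal, and replicate 1, with the highest slope, had the lowest. The part of this spread between wild-type arrays in the *RALFL27* difference was not tested. Without each array in turn, the interaction of *RALFL27* lay between -4.73 and -4.14, and the wild-type salt difference lay between -2.01 and -1.43.

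Markers of root and shoot gave the following values beside the *RALFL27* decreases. The summed signal of the 3 measured root markers (*PYK10*, *EXPA7* and *CASP1*) was 12715 to 14197 after salt and 15930.2 to 18943 after mock treatment in the overexpressor, and 14359 to 19959 after salt and 15853 to 18425 after mock treatment in the wild-type. For the 5 measured shoot markers, the sums were 15633 to 16294 after salt and 38945 to 55529 after mock treatment in the overexpressor, and 10267 to 36262 after salt and 44399 to 47053 after mock treatment in the wild-type. After salt, 1 of 3 root and 3 of 5 shoot markers were lower in the overexpressor, against 24% of all probe sets, and 1 of 3 and 4 of 5 were lower in the wild-type, against 21.9% (limma, adjusted p under 0.05). The root sum was mostly *PYK10*, with a mean of 12876 in the salt-treated overexpressor, against 231 for *EXPA7* and 291 for *CASP1*. The lower root marker was *CASP1*, paired only through the paper's tables, at -2.11 in the overexpressor and -1.35 in the wild-type. The shoot markers *CA1* and *AS1*, lower in both genotypes, were also paired only through these tables, which hold genes selected on these arrays. Of the 3 shoot markers paired through the annotation, *RCA* was lower in both genotypes, *PORB* in the wild-type only and *FAMA* in neither. *PYK10* and *EXPA7* passed no test after salt, at -0.29 and -0.09 in the overexpressor and -0.02 and 0.37 in the wild-type. The part of these markers in the *RALFL27* decrease was not tested.

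The RALF family has 34 genes in RefSeq, and 11 of them besides *RALFL27* had a probe set paired with them alone. Of the 11, 8 lay above the 20th percentile on all arrays of at least 1 group. The 22 unmeasured family members were not analysed here. Members were counted as lower or higher where limma's adjusted p (Benjamini-Hochberg over the 22746 probe sets) was under 0.05. *RALF1* was paired only through the paper's tables of genes selected on these same arrays, so its direction is not independent evidence.

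After salt in the overexpressor, where *RALFL27* had its difference of -6.16, 2 of the 11 other RALF genes were lower, against 24% of all probe sets, and 2 were higher, against 17.1%. The lower ones were *RALF1*, the founding ligand of FERONIA that slows root elongation, at -2.54 (SE 0.25, adjusted p = 8.7e-06), and *RALFL24* at -0.68 (SE 0.16, adjusted p = 0.0041). *RALFL22*, whose peptide has been tied to growth on salt through FERONIA and LRX proteins, was higher by 0.91 (SE 0.16, adjusted p = 0.00054). *RALFL33*, another ligand of FERONIA, was higher by 0.90 (SE 0.16, adjusted p = 0.00083). The median log2 difference of the 11 was 0.19, against -0.09 for all probe sets. Of the 10 paired through the annotation, 1 was lower and 2 were higher.

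After salt in the wild-type, 3 of the 11 were lower, against 21.9% of all probe sets, and 0 were higher, against 17.2% (limma, also 0 at an unadjusted p under 0.05 and with the methods' t-test, but 2 with array weights and 2 without salt-treated wild-type replicate 2). The lower genes were *RALF1* at -1.97 (adjusted p = 7.8e-05), *RALFL24* at -1.45 (adjusted p = 2.8e-05) and *RALFL34*, whose peptide is a ligand of THESEUS1 in root branching, at -0.62 (adjusted p = 0.0019). With the methods' t-test after Benjamini-Hochberg, 0 of the 11 were lower in the wild-type. The median of the 11 was -0.27, against -0.07 for all probe sets. Of the 10 paired through the annotation, 2 were lower and 0 higher in limma. *RALFL27* itself, at -1.75, lay between *RALF1* and *RALFL24* in the wild-type, whereas its overexpressor difference was beyond that of every other measured RALF gene. In limma, *RALF1* and *RALFL24* fell in both genotypes, with interactions of -0.57 and 0.77 (adjusted p = 0.57 and 0.18).

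**Figure D3:**
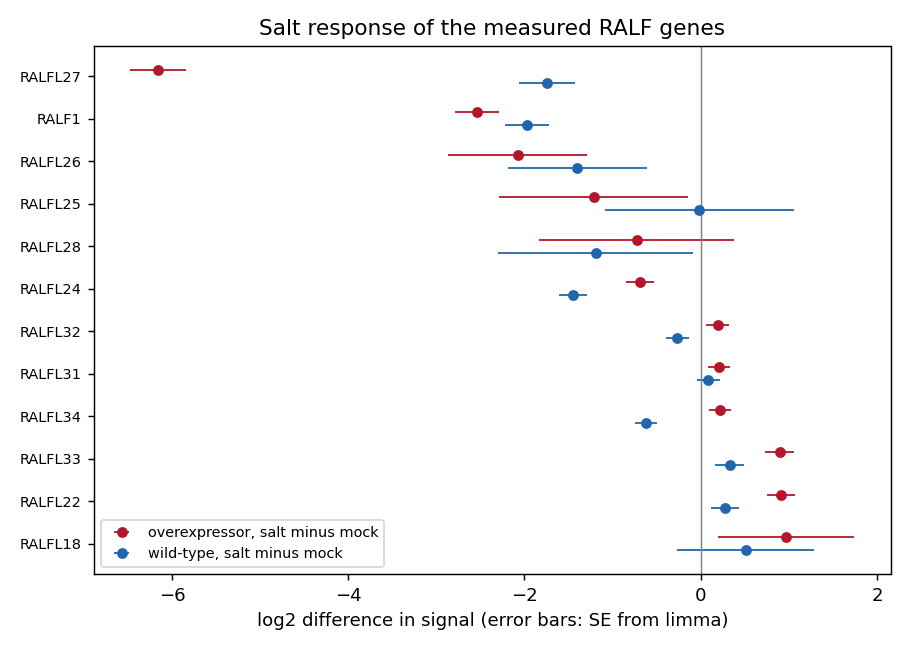
Log2 difference between salt and mock for the 12 measured RALF genes (x axis), in the overexpressor and in the wild-type, with bars of 1 SE from limma. *RALFL27* has the lowest overexpressor value, -6.16, against -2.54 for *RALF1*, the next lowest, and wide bars mark genes whose signals were mostly near background.

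*RALF1* had signals of 217, 360 and 253 in the salt-treated overexpressor and 1339.6, 1705 and 1705 in the mock-treated overexpressor. In the wild-type it had 252, 473 and 241 after salt and 1320.5, 1295 and 1011 after mock treatment. Salt and mock arrays did not overlap in either genotype, but the genotypes overlapped under salt for *RALF1*. Its interaction had an SE of 0.35.

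*RALFL22* ran the other way. It had 3769, 3461 and 3826 in the salt-treated overexpressor and 1963, 1943 and 1953 in its mock treatment. The wild-type had 2349, 1473 and 2327 after salt and 1704, 1788 and 1478 after mock treatment. The salt-treated overexpressor, the group in which *RALFL27* was lowest, was the highest of the 4 for *RALFL22*, with no overlap with the others.

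With the genotypes set against each other under salt, 0 of the 11 other RALF genes were lower in the overexpressor (limma, also 0 at an unadjusted p under 0.05 and with the methods' t-test), against 0.783% of all probe sets. In the opposite direction to *RALFL27*, 3 were higher, against 1.23% of all probe sets. These were *RALFL22* by 0.88 (SE 0.16, adjusted p = 0.019), *RALFL34* by 0.67 (SE 0.13, adjusted p = 0.024) and *RALFL32* by 0.65 (SE 0.13, adjusted p = 0.027). *RALFL34* had signals of 3169, 2439.6 and 2929.6 in the salt-treated overexpressor, against 1816, 1759.7 and 1777 in the salt-treated wild-type. *RALFL32* had 1251, 1373 and 1326, against 835, 1022 and 689 in the same groups, so the genotypes did not overlap for either gene. The count was 0 without the intensity trend of the variance, with only the groups compared, without salt-treated overexpressor replicate 1 and without replicate 3, and it was 1 without salt-treated wild-type replicate 3. Without single arrays, the adjusted p reached 0.089 for *RALFL22*, 0.094 for *RALFL32* and 0.11 for *RALFL34*. The methods' t-test called 0 of the 11 higher.

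Under mock treatment, 0 of the 11 differed between the genotypes (limma, also 0 at an unadjusted p under 0.05), against 0.431% of all probe sets lower and 0.132% higher. For the interaction, in which *RALFL27* was at -4.41, 0 of the 11 were called in limma, against 0.0528% lower and 0.246% higher. At an unadjusted p under 0.05, 0 of them had a lower and 5 had a higher interaction. The share of all probe sets at that threshold was not counted, so these counts have no background to be set against. The median interaction of the 11 was 0.46, against -0.03 for all probe sets, so most of the other measured RALF genes had the opposite sign of *RALFL27*. Among those of opposite sign, *RALFL18* and *RALFL28* had SEs of 1.10 and 1.57, from low signals.

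Over the 12 arrays, the log2 signal of *RALFL27* had a Pearson correlation of 0.83 with *RALF1*, 0.67 with *RALFL26* and 0.50 with *RALFL24*. It was -0.90 with both *RALFL22* and *RALFL33* and -0.62 with *RALFL31*. These arrays share the 4 groups and the salt treatment, so the values describe likeness of pattern across the groups. *RALFL25*, *RALFL26* and *RALFL28* were near background on nearly all arrays and had no adjusted p under 0.05 in limma (*RALFL26* had an adjusted p of 0.052 for salt in the overexpressor), and *RALFL18* was near background on 5 arrays.

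Next to the ligands, 22 genes of the RALF pathway were measured, namely 11 of 16 receptor kinases of the FERONIA family, 8 of 11 LRX genes, 3 of 20 processing and downstream genes and 0 of 4 LORELEI co-receptor genes. After salt in the overexpressor, 2 of the 22 were lower, against the 24% of all probe sets, and 4 were higher, against 17.1%. After salt in the wild-type, 1 was lower, against 21.9%, and 5 were higher, against 17.2%, so the shares of higher genes were near those of all probe sets. *MYC2*, counted as higher in both genotypes, was paired only through the paper's tables of genes selected on these arrays. Its direction is not independent evidence. In the wild-type, the methods' t-test after Benjamini-Hochberg called 0 of them in either direction. The median log2 difference of the 22 was -0.21 in the overexpressor and 0.22 in the wild-type, against -0.09 and -0.07 for all probe sets.

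Among the higher genes were 3 receptor genes, in both genotypes. *FER*, the gene of FERONIA, had signals of 2677, 2724 and 2521 in the salt-treated overexpressor and 1689.7, 1775 and 1648 in its mock treatment. In the wild-type it had 2751, 2123 and 2945 after salt and 1467, 1473 and 1392 after mock treatment. Salt and mock arrays did not overlap in either genotype. Its log2 difference after salt was 0.63 (SE 0.12, adjusted p = 0.00089) in the overexpressor and 0.84 (SE 0.12, adjusted p = 0.00015) in the wild-type in limma. *THE1*, the gene of THESEUS1, a sensor of wall integrity, was higher by 0.80 and 0.88 in the same comparisons, and *CVY1*, a receptor kinase gene of cell shape, by 0.49 and 0.85.

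*LET2*, a receptor kinase gene of the same family, was higher after salt in the wild-type by 0.99 (adjusted p = 0.023, limma), a call lost without wild-type mock replicate 1 or 2, without wild-type salt replicate 1 or 3 (adjusted p up to 0.095) and with only the groups compared. In the overexpressor its difference was -0.43 (adjusted p = 0.31). The pollen receptor genes *ANX1*, *ANX2*, *BUPS1* and *BUPS2* were near background in most samples.

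**Figure D4:**
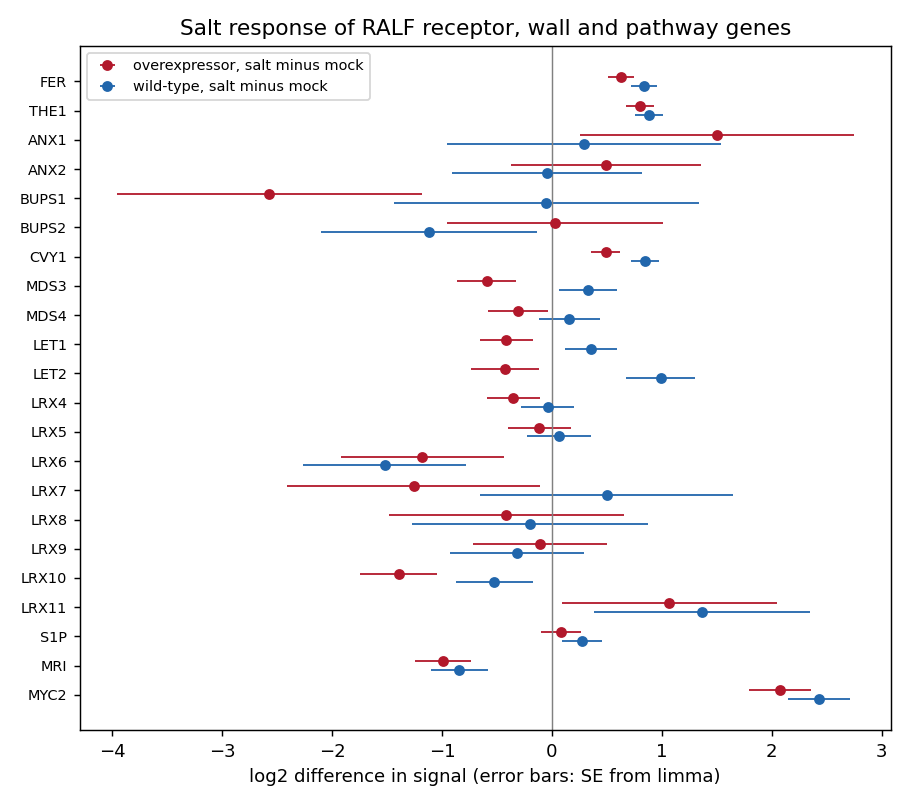
Log2 difference between salt and mock for the 22 measured receptor, wall and pathway genes (x axis), in the overexpressor and in the wild-type, with bars of 1 SE from limma. *FER*, *THE1* and *CVY1* lie to the right of 0 in both genotypes, between 0.49 and 0.88, and no gene has a value as low as the -6.16 of *RALFL27* in the overexpressor.

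Among the wall proteins, *LRX10* was lower in the salt-treated overexpressor, with signals of 34.1, 27.4 and 33.2 against 87.4, 93.0 and 69.5 in the mock-treated overexpressor. Its log2 difference was -1.40 (SE 0.35, adjusted p = 0.0063, limma), and it was -0.52 (adjusted p = 0.27) in the wild-type. *LRX4* and *LRX5*, named with *LRX3* for growth on salt, passed no test after salt, with differences of -0.35 and -0.11 in the overexpressor and -0.04 and 0.06 in the wild-type.

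Downstream, *MRI*, a receptor-like cytoplasmic kinase gene of cell wall integrity, was lower in both genotypes, at -0.99 in the overexpressor (adjusted p = 0.0078) and at -0.84 in the wild-type (adjusted p = 0.02) in limma. The wild-type call was lost without mock replicate 2 or 3 or salt replicate 3 (adjusted p up to 0.083). *MYC2*, a jasmonate transcription factor gene that was paired only through the paper's tables, was higher by 2.08 in the overexpressor and by 2.43 in the wild-type. *S1P*, the gene of the precursor-cutting subtilase, had differences of 0.08 and 0.27 and passed no test.

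In limma, 0 of the 22 pathway genes differed between the genotypes under salt, against 0.783% of all probe sets lower and 1.23% higher. Under mock treatment 0 differed (0.431% lower and 0.132% higher), and 0 in the interaction (0.0528% and 0.246%). Counts of 0 are thus near the shares of all probe sets. The shares of all probe sets at an unadjusted p under 0.05 were not counted. At that threshold, 4 of the 22 were lower under salt, 2 were higher under mock treatment and 3 were lower in the interaction. Of these, *LET2* had the most negative interaction among genes above background, at -1.42 (SE 0.44, adjusted p = 0.2), against the -4.41 of *RALFL27*.

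Other peptide families served as a further background to *RALFL27*. Of 18 measured genes, 4 were lower (24% of all probe sets were) and 7 higher (17.1%) after salt in the overexpressor, and 6 were lower (21.9%) and 7 higher (17.2%) in the wild-type. All 7 higher genes in each genotype were among the 10 paired only through the paper's tables, which hold genes selected on these arrays. Of the 8 paired through the annotation, 1 was lower and 0 were higher in the overexpressor, and 3 were lower and 0 higher in the wild-type (limma, also 0 higher at an unadjusted p under 0.05). In limma, 0 of the 18 differed between the genotypes under salt, against 0.783% of all probe sets lower and 1.23% higher. At an unadjusted p under 0.05, 3 of the 18 did, and the share of all probe sets at that threshold was not counted. *STOMAGEN*, a peptide gene that promotes stomata, was lower at -2.81 in the overexpressor and -2.95 in the wild-type, and its interaction of 0.14 had an SE of 0.44.

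The measured genes nearest to *RALFL27* in RefSeq order were called in none of the 5 comparisons (limma, although 1 was higher under salt and 1 under mock treatment between the genotypes at an unadjusted p under 0.05). Of all probe sets, 24% were lower and 17.1% higher after salt in the overexpressor, and 21.9% and 17.2% in the wild-type. At most 1.23% were called in either direction in the other comparisons. Of the nearest 2 on each side, *AT3G29775*, *AT3G29787* and *AT3G29791* were near background on nearly all arrays. *AT3G29760* had mean signals of 431 (salt) and 518 (mock) in the overexpressor, and 461 (salt) and 425 (mock) in the wild-type. Its salt difference was -0.26 (SE 0.12, adjusted p = 0.12, limma) in the overexpressor and 0.12 in the wild-type.

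Likeness to *RALFL27* was taken as the Pearson correlation of log2 signal over the 12 arrays, among 7520 probe sets paired with 1 gene whose highest group mean was above the median of all probe sets. The median correlation was 0.13, and 193 reached 0.9. The arrays share 4 groups, so a high value means that the group levels ran in parallel. The highest 10 were *AT1G02360* (0.97), *CSD2*, *AT3G19430*, *AT5G63940*, *CUL4*, *AT2G42350*, *CDEF1*, *AT3G15090*, *AT1G52070* and *sks15* (0.95). The lowest 5 were *BGLU25* (-0.98), *AT4G18030*, *ARA12*, *AT3G54400* and *AT5G09270* (-0.97).

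**Figure D5:**
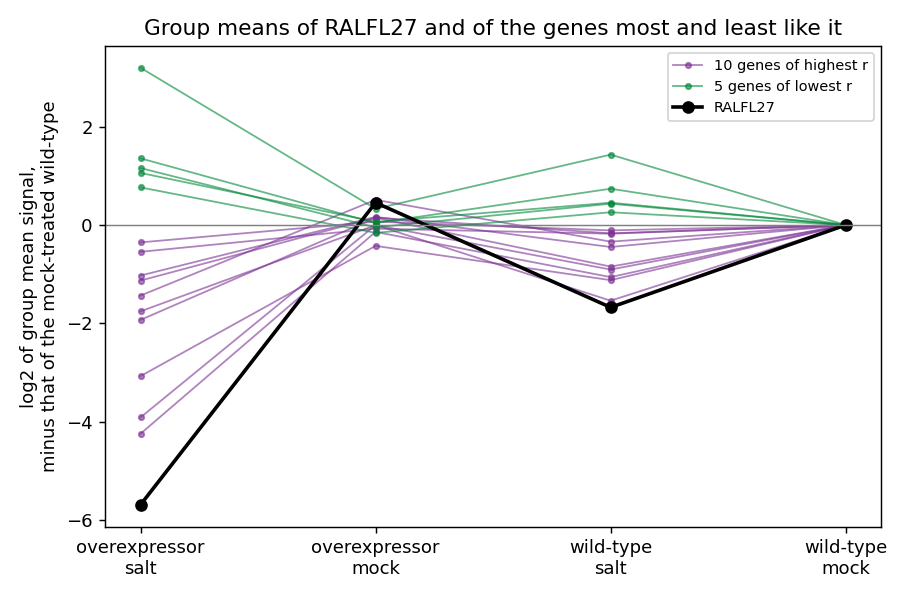
Group means of *RALFL27* and of the 10 genes most like it and the 5 least like it, as log2 of the mean signal minus that of the mock-treated wild-type (y axis), with lines joining the 4 groups of 1 gene. All 10 lie below 0 and all 5 above 0 in the salt-treated overexpressor, and *RALFL27* lies lowest.

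As measured, none of these genes matched the size of the *RALFL27* salt difference in the overexpressor or of its interaction. The signals of *AT3G19430* in the salt-treated overexpressor, 13.1 to 27.4, lay around the 20th percentile. It had a salt difference of -4.18 in the overexpressor and an interaction of -2.94, and *AT1G52070* had -3.92 and -2.20. The signals of *AT1G52070* were 44.4 or higher on every array, above the 20th percentile. With signals raised to at least that percentile, *RALFL27* was at -3.42 and -1.67, smaller in size than these values of *AT1G52070*. *CUL4*, the gene of a cullin scaffold of ubiquitin ligases, had -0.42 and -0.31, although its correlation with *RALFL27* was 0.96. *AT1G02360* had mean signals of 121 ± 11.4 (salt) and 512 ± 85.7 (mock) in the overexpressor, and 257 ± 40.1 (salt) and 462 ± 49.3 (mock) in the wild-type (SD, n = 3 arrays each), the group order of *RALFL27* on a smaller scale. The list depended on the measure, since 2 of the 10 were shared with the highest 10 by Spearman correlation, 5 after quantile normalization and 0 with signals raised to at least the 20th percentile.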

How the data were processed

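RNA of 12 samples of whole Arabidopsis seedlings, in 4 groups of 3 biological replicates, was hybridised to ATH1 GeneChips. The authors made the deposited intensity values from the scanned arrays with MAS5, per the labels, as linear signals scaled to a common trimmed mean. The study's methods name GeneSpring GX for the later quality control, statistics and filtering, which were not used here. Genotype and treatment were read from the sample labels. Controls (64 probe sets) were removed, and log2 of the other 22746 was fitted with limma 3.58.1 (R 4.3.3) as 4 group means with an intensity trend. It gave 5 differences, with two-sided tests and Benjamini-Hochberg adjustment. The fit was tested on simulated data with 200 probe sets lowered, for salt in the overexpressor only. They had above-median signals and smaller decreases than *RALFL27*, so the size of its decrease and the other comparisons were not covered.

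Of the tested probe sets, 14210 were paired with 1 gene, 13512 by the annotation and 698 only by the paper's gene tables (no values were taken from these). Another 555 had several genes, 1 was in conflict and 7980 had none. Unpaired genes were not analysed here. A gene with several probe sets was given by the one of highest mean signal.

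The members and lists were chosen with earlier results of these data known. Named were *RALFL27*, every other paired RALF gene, up to 4 members of each list (RALF receptors, LRX and pathway genes, other peptide families, markers, salt check) with the smallest adjusted p for salt in the overexpressor, the 10 probe sets most and 5 least like *RALFL27*, and the nearest 2 genes on each side. Other list members appear in a figure or were named after their values were seen, to complete a group.

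Other settings were median centring, quantile normalization, 16 added to each signal, signals floored at the 20th percentile, a filter at the 40th percentile, limma without the trend, with array weights, on the compared groups alone or with a replicate block, a stricter threshold, each array left out, and the methods' t-test for unequal variances on the same signals, both at an unadjusted p under 0.01 with more than 3-fold change and after Benjamini-Hochberg. No sequence was printed, since no sequence table was used here.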

Additional observations from a re-analysis of the deposited data

Results flagged for a closer look

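The interaction of *RALFL27*, -4.41 on the log2 scale, was taken out for a closer look because its salt response differed between the overexpressor and the wild-type. The salt-treated overexpressor arrays kept 1.24% to 1.71% of their mock mean, and the salt-treated wild-type arrays kept 19.0% to 43.0% of theirs. This is the value for which the gene was chosen, so it carries no test of its own here. Its size rests on 3 signals near background, and it was -1.67 with signals raised to at least the 20th percentile.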

How the results depend on the processing

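The *RALFL27* differences kept their direction, but not their size, in every setting for which they were computed. The ranges of no 2 groups overlapped, so the floor, the added 16 and leaving out single arrays could not reverse a direction. The kept direction is therefore only a description. These settings were median centring, quantile normalization, the floor, 16 added to each signal, the replicate block and each array left out. Except for the interaction, the fit on only the groups compared was also among them. The differences were not computed without the intensity trend, with array weights, with the filter or with the methods' t-test. With signals floored at the 20th percentile, they were -3.42 for salt in the overexpressor, -1.22 for the genotype under salt and -1.67 for the interaction, and with 16 added to each signal they were -3.77, -1.86 and -2.29. Leaving out single arrays gave -6.30 to -6.07, -4.27 to -3.69 and -4.73 to -4.14 in the same comparisons. Median centring moved the median of all probe sets for salt in the overexpressor to 0.05, against -0.09, and *RALFL27* to -6.01, and it gave 4 higher RALF genes in place of 2.

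Counts of other genes also moved, in part under settings that were not applied to *RALFL27*, so the 2 are not compared. With the threshold at an adjusted p of 0.01 and 3-fold change, 1 RALF gene was lower after salt in the overexpressor and 1 in the wild-type, 0 pathway genes were lower in either, and 0 RALF genes were higher in the overexpressor under salt. For these counts, the t-test of the methods with unadjusted p under 0.01 and 3-fold change gave 1, 0, 0, 0 and 0, and after Benjamini-Hochberg it gave 0 lower RALF genes in the wild-type, 1 lower pathway gene in the overexpressor and 0 in the wild-type, and 0 RALF genes higher under salt. The count of 3 RALF genes higher in the overexpressor under salt was 5 with array weights, 0 without the trend, 0 with only the groups compared and 0 to 4 without single arrays. These counts for the genotype under salt were added after seeing the data. The count of 2 lower pathway genes in the overexpressor was 4 with array weights and 1 with the filter. That of 1 in the wild-type was 2 with the floor, 0 with only the groups compared, 0 to 1 without single arrays (0 without wild-type mock replicate 2 or 3 or salt replicate 3) and 2 with the replicate block. The shares of all probe sets called under these other settings were not counted, so the changed counts, here and above, have no background to be set against. The causes were not tested.

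Same-numbered arrays did not deviate together (correlations from -0.048 to 0.09), so the numbers are not taken as pairs. With the replicate number as a block, *RALFL27* kept -6.16 for salt in the overexpressor, and the count of RALF genes higher under salt was 2. Low signal over background limits the size of the *RALFL27* decrease more than its direction.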
